A study of Mus musculus with 6 samples.

Results

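The liver secretory genes known as FOXA targets were followed in kidney tubule cells that overexpressed HNF3α, the protein encoded by Foxa1. They were 10 genes, Alb, Ttr, Afp, Apoa1, Apoa2, Apob, Apoh, Tat, Fga and Fgb, which were taken by name from the 29595 genes of the deposited table, and all 10 were present in it. They were chosen as genes on which FOXA factors are known to act in liver, and the rule that selects them uses names only. The comparison asks whether Foxa1 alone turns on hepatocyte genes in tubule cells. TKPTS cells, a mouse kidney proximal tubule cell line, were transfected with pcDNA3.1-Hnf3a-Flag (the Hnf3a group, 3 libraries, labelled as overexpressing HNF3α) or with the empty plasmid pcDNA3.1-Flag (the pcDNA group, 3 libraries, labelled WT), and were harvested 24 h later. The groups therefore shared the cell line, the plasmid backbone and the Flag tag. Transfection was transient, and the share of cells that took up the plasmid is not given in the sources used here. A level in these bulk libraries cannot tell apart fewer cells making a transcript and less transcript per cell.

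Hepatocytes make most of the proteins of blood plasma, among them albumin, carriers of hormones and retinol, apolipoproteins and clotting proteins. The genes for these proteins are read in the liver under a combination of factors that includes FOXA, HNF1, HNF4 and C/EBP proteins. FOXA proteins are forkhead factors that can bind their sites in compacted chromatin, and the Ttr promoter was among those on which the HNF3 family was first defined. Proximal tubule cells share HNF1 and HNF4 factors with hepatocytes, but do not normally supply the plasma with these proteins.

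Total counts per library lay between 60473818 and 71154667. A sequenced fragment was worth up to about 4 counts in the table, and a gene with at most 12 counts, or about 3 fragments, was taken as at or under the floor of detection. Foxa1 itself checked the labels. Its counts were 80803, 77904 and 69508 in Hnf3a replicates 1 to 3, and 2134, 2330 and 2416 in pcDNA replicates 1 to 3. Its level was 305 ± 26.2 FPKM (fragments per kilobase of transcript, scaled to library size; SD, n = 3) in Hnf3a and 9.66 ± 0.259 FPKM in pcDNA, a 31.3-fold difference with a 95% interval of 28.2 to 34.8 (edgeR quasi-likelihood test, adjusted p = 5.99e-10). Transcripts of the plasmid and of the cell's own gene were not separated. The epithelial markers Cdh1, Epcam, Krt8, Krt18 and Pax8 were abundant in every library, with summed FPKM over 16 tubule markers of 658 to 666 in Hnf3a and 611 to 620 in pcDNA. The defining proximal tubule receptors Lrp2 and Cubn were near the floor, with 17 to 58 counts, and the glucose transporter gene Slc5a2 had at most 3 counts. Among the other tubule markers, Dab2 had 7577 to 8845 counts, Cdh16 597 to 849 and Aqp1 162 to 235. Ggt1, Anpep and Pax2 had 7 to 94 counts, and Amn and Vil1 had at most 17. At an adjusted p under 0.05, 1 of the 13 tubule markers tested was higher in Hnf3a (Krt18), 0 of 7 fibroblast markers were called although all 7 log2 fold changes were above 0, and 1 of 6 macrophage markers was lower (Cd14). Of all 17824 genes tested, 1.04% were higher and 2.13% were lower at that level. Hnf3a replicates 2 and 3 stood apart from the other libraries in most of the fibroblast and macrophage markers. Col1a1 had 2694 and 3099 counts in these libraries and at most 33 in any other, and the summed FPKM of 10 fibroblast markers was 2.46, 9.84 and 11.7 in Hnf3a replicates 1 to 3 against 1.88 to 2.04 in pcDNA, with Mfap5 at or under the floor in every library. Col1a2, Col3a1, Dcn, Lum, Postn and Thy1 were likewise highest in Hnf3a replicates 2 and 3. Lyz2, a macrophage gene, had 265 and 273 counts in the same libraries, 0 in Hnf3a replicate 1 and at most 44 in pcDNA. Ptprc, Adgre1, Mrc1, Fcgr1, Tyrobp, C1qa, C1qb and C1qc were also highest in these libraries, and 5 of the 6 macrophage markers tested had log2 fold changes above 0. The sum over 12 macrophage markers was 35 to 42.4 FPKM in Hnf3a and 48.4 to 51.7 FPKM in pcDNA, of which Cd14 made up 22.7 ± 0.845 and 36.6 ± 2.34 FPKM. Fbln1, Cd68 and Csf1r did not set Hnf3a replicates 2 and 3 apart. Fbln1 was at 2.31, 2.14 and 2.23 FPKM in Hnf3a replicates 1 to 3 and at 1.81 to 1.92 FPKM in pcDNA. It made up most of the fibroblast sum outside Hnf3a replicates 2 and 3. Cd68 was at 11.8 ± 0.81 FPKM in Hnf3a and 11.6 ± 0.751 FPKM in pcDNA. For Csf1r these were 1.88 ± 0.078 and 1.54 ± 0.231 FPKM. The part of the fibroblast and macrophage genes in the results below was not tested.

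The promoters of the liver genes were searched for 2 DNA words that liver factors read, and 4 of them are shown, 3 because they held a FOXA word and Alb because it was the most abundant of the genes. Promoter sequences were those of RefSeq on GRCm38.p6, 250 bases before to 50 bases after each start. They were found for 9 of the 10 genes, in 10 windows, with Ttr unmatched. A FOXA word (TGTTTAC or TATTTAC, on either strand) was present in 3 of the 10 windows, those of Apoa2, Apoh and Fgb, and in 6.54% of 32851 mouse promoter windows. An HNF1 half-site (GTTAAT, on either strand) was present in 4 of the 10 windows, those of Alb, Afp, Fga and Fgb, and in 7.1% of all windows. No match of one word overlapped a match of the other. Each stretch below runs 5′ to 3′ on the strand of the gene, from base -120 to base -11 relative to the RefSeq start, and capitals mark the matches. In the Fgb stretch the first capitals are the FOXA word and the last are the HNF1 half-site, both read from the opposite strand. The only capitals are the HNF1 half-site in Alb and the FOXA word in Apoa2 and Apoh.
Alb, chr5:90460750-90460859, plus strand: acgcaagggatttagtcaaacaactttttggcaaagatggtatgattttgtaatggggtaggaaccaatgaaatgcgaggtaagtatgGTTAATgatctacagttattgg
Fgb, chr3:83049874-83049983, minus strand: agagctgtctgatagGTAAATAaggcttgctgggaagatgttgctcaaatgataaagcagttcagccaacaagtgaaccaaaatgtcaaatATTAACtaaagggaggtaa
Apoa2, chr1:171224934-171225043, plus strand: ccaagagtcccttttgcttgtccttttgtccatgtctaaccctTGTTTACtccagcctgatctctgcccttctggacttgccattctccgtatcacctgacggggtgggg
Apoh, chr11:108395177-108395286, plus strand: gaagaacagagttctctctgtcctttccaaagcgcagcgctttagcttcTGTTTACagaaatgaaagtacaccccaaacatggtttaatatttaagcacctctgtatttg
These matches describe letters only. Only these exact words were searched, so a window without a match may hold other forms of such a site. No binding was measured in these libraries. The paper also mapped HNF3α binding in TKPTS cells by CUT&Tag sequencing, which was not examined here for these genes.

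None of the 10 liver genes was called higher in the Hnf3a group, and Tat was too scarce to be tested in the fit. Of the 9 that passed the filter on low counts, 0 passed an adjusted p of 0.05 in edgeR, against 3.17% of the 17824 genes tested (565 genes, of which 186, or 1.04%, were higher and 379, or 2.13%, were lower). At an unadjusted p under 0.05, 3 of the 9 did (Alb, Fga and Fgb, each lower), against 13.5% of all genes, and 6.98% of all genes were lower at that level. DESeq2 called 1 of them, Alb, as lower, and 3 passed at the unadjusted level, as did 10.6% of all genes it tested. It called 3.34% of all genes it tested, and 1.98% as lower. The fitted log2 fold change was below 0 for 8 of the 9, with a median of -0.58, where 49.8% of all genes tested were below 0 and their median was 0.00085. The CPM (counts scaled to the library total) of the groups did not overlap for 1 of the 9, Fga, which was lower in Hnf3a, against 8.34% of all genes that were lower without overlap.

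Most of the 10 genes were already detected in the control cells, at low levels. In pcDNA, 8 of the 10 were above 12 counts in all 3 libraries, and in Hnf3a 7 of the 10 were. For comparison, 15768 of the 29595 genes of the table were above 12 counts in all 3 pcDNA libraries, and 15991 in all 3 Hnf3a libraries. In all 6 libraries, a stricter rule, 52.0% of all genes and 73.3% of the protein-coding genes were. Single libraries had 77 to 80.1% of the protein-coding genes above 12 counts. All 10 genes are protein-coding, so that detection of most of them was not particular to them. None of the 10 genes went from at or under the floor in every pcDNA library to above it in every Hnf3a library, a change shown by 87 genes of the table (0.294%). Only Tat could have shown this change, since every other gene was already above the floor in some pcDNA library. The share over the table therefore does not apply to those genes. Summed over the 10 genes, the level was 8.95, 5.61 and 5.63 FPKM in Hnf3a replicates 1 to 3 and 9.63, 14.0 and 8.27 FPKM in pcDNA replicates 1 to 3, so that Hnf3a replicate 1 lay above pcDNA replicate 3. Alb made up the largest part of these sums, with 3.75 of the mean 6.73 FPKM in Hnf3a and 6.14 of 10.6 FPKM in pcDNA.

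**Figure D1:**
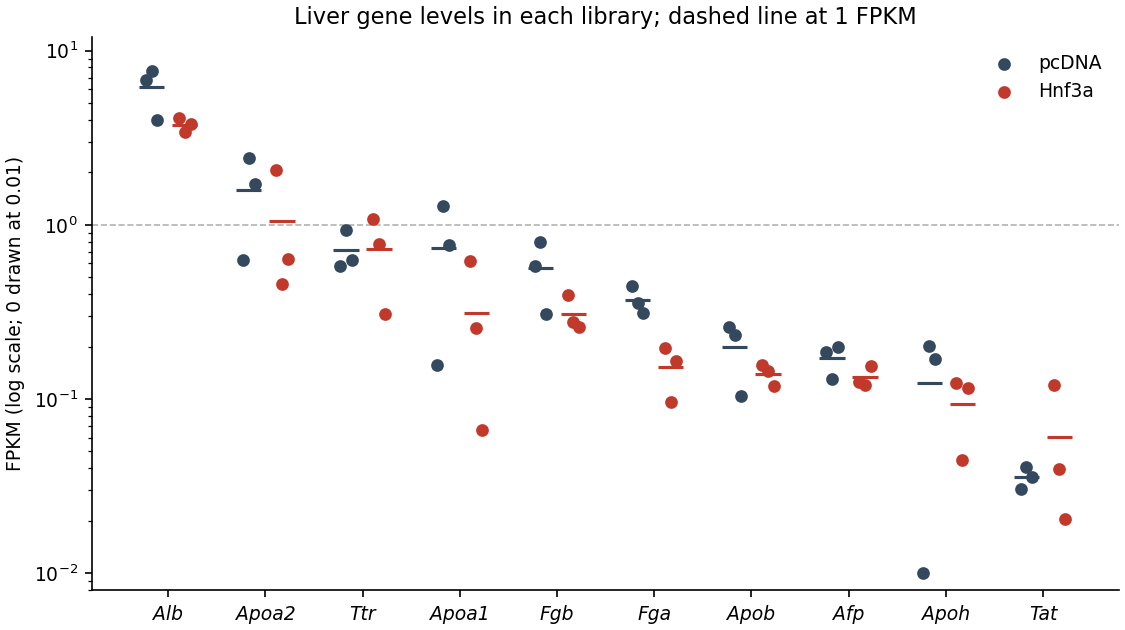
FPKM of each of the 10 liver genes (log axis, a value of 0 drawn at 0.01) in the 3 pcDNA and 3 Hnf3a libraries, 1 point per library, with short bars at the group means and a dashed line at 1 FPKM. Alb was the only gene above 1 FPKM in every library, and the points of the groups separated only for Fga.

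Albumin and α-fetoprotein, the main plasma proteins of the adult and the fetal liver, are encoded by neighbouring genes on chromosome 5. Alb (ENSMUSG00000029368, chr5:90460897-90476602 on GRCm38, plus strand, 15 exons in its longest transcript) was the most abundant of the 10 genes. Its counts were 695, 631 and 652 in Hnf3a replicates 1 to 3 and 1071, 1312 and 687 in pcDNA replicates 1 to 3. All Hnf3a values and pcDNA replicate 3 were low, pcDNA replicates 1 and 2 were high, and the groups overlapped. The level was 3.75 ± 0.342 FPKM in Hnf3a and 6.14 ± 1.88 FPKM in pcDNA, and the mean over all libraries stood at percentile 59.1 of the protein-coding genes. The log2 fold change was -0.72 (SE 0.24, 95% interval -1.32 to -0.12, edgeR adjusted p = 0.27, unadjusted p = 0.026). Whether Alb was called depended on the libraries and the test. Without pcDNA replicate 3, when edgeR called 1.35% of all genes lower, its log2 fold change was -0.95 with an adjusted p of 0.000701. With any other library left out, it lay between -0.79 and -0.53, with an edgeR adjusted p of 0.38 to 0.517. DESeq2 on all 6 libraries gave an adjusted p of 0.00277.

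Afp (ENSMUSG00000054932, chr5:90490737-90508907, plus strand) lies downstream of Alb and overlaps an antisense gene, Gm43449. Its counts were 31, 34 and 39 in Hnf3a and 44, 33 and 50 in pcDNA, with overlapping groups. The level was 0.133 ± 0.0184 FPKM in Hnf3a and 0.173 ± 0.0368 FPKM in pcDNA. The log2 fold change was -0.37 (95% interval -1.11 to 0.36, edgeR adjusted p = 0.73), so that a rise of more than 1.29-fold lay outside the interval.

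Fga and Fgb encode the Aα and Bβ chains of fibrinogen, the clotting protein that thrombin turns into fibrin, and lie side by side on chromosome 3. Fga (ENSMUSG00000028001, chr3:83026076-83033627, plus strand, 6 exons) had 44, 23 and 38 counts in Hnf3a and 91, 79 and 68 counts in pcDNA. Every Hnf3a library was below every pcDNA library. The level was 0.153 ± 0.0517 FPKM in Hnf3a and 0.371 ± 0.0692 FPKM in pcDNA. The log2 fold change was -1.26 (SE 0.32, 95% interval -1.95 to -0.56, edgeR adjusted p = 0.0555, unadjusted p = 0.00187), a level in Hnf3a of 0.419 of that in pcDNA that missed the threshold. It passed without Hnf3a replicate 1 (adjusted p = 0.0427) and with counts divided by 4, for about 1 count per fragment (adjusted p = 0.034). With any other library left out, the edgeR adjusted p was 0.103 to 0.246.

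Fgb (ENSMUSG00000033831, chr3:83040141-83049863, minus strand, 8 exons) had 109, 84 and 73 counts in Hnf3a and 151, 223 and 85 counts in pcDNA. The groups overlapped, since pcDNA replicate 3 lay below Hnf3a replicate 1. The level was 0.309 ± 0.0736 FPKM in Hnf3a and 0.561 ± 0.245 FPKM in pcDNA. The log2 fold change was -0.87 (SE 0.31, 95% interval -1.54 to -0.19, edgeR adjusted p = 0.217, unadjusted p = 0.0165). Without pcDNA replicate 3 it was -1.16 with an adjusted p of 0.0445, and without pcDNA replicate 2 it was -0.53. With any library other than pcDNA replicate 3 left out, the edgeR adjusted p was 0.133 to 0.63. The third chain of fibrinogen, Fgg, next to Fga, had 41, 14 and 19 counts in Hnf3a and 42, 62 and 49 in pcDNA, with a log2 fold change of -1.11 (edgeR adjusted p = 0.257).

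**Figure D2:**
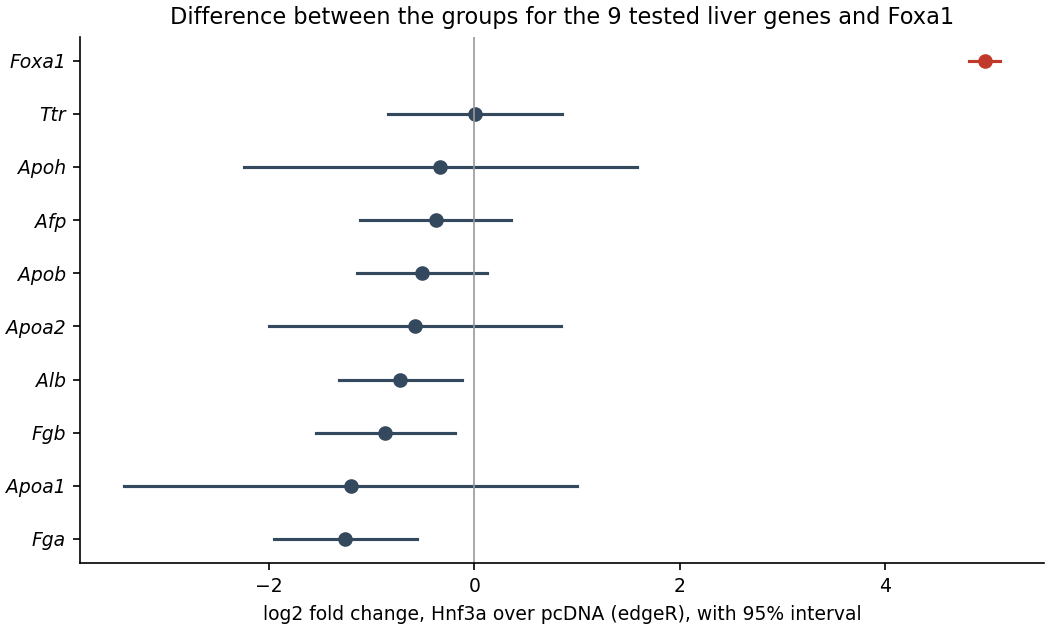
Log2 fold change of Hnf3a over pcDNA (points) with its 95% interval (bars) from edgeR for the 9 tested liver genes and for Foxa1. Foxa1 stood at 4.97, the points of 8 liver genes lay below 0, and the intervals of Alb, Fga and Fgb did not reach 0.

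Apolipoproteins carry lipid through plasma. ApoA-I and ApoA-II are the main proteins of high density lipoprotein, and ApoB is the backbone of the very low density particle that hepatocytes secrete. Apoa2 (ENSMUSG00000005681, chr1:171225054-171226379, plus strand, 4 exons) had 81, 20 and 27 counts in Hnf3a and 23, 95 and 68 counts in pcDNA. Hnf3a replicate 1 and pcDNA replicates 2 and 3 were high, and the spread within each group exceeded the difference between them. The level was 1.05 ± 0.878 FPKM in Hnf3a and 1.59 ± 0.899 FPKM in pcDNA, with a log2 fold change of -0.58 (95% interval -2.0 to 0.84, edgeR adjusted p = 0.79). Apoa1 (ENSMUSG00000032083, chr9:46228580-46230466, plus strand, 4 exons) had the same 3 highest libraries as Apoa2, with 56, 27 and 7 counts in Hnf3a and 14, 117 and 70 counts in pcDNA. Its level was 0.313 ± 0.28 FPKM in Hnf3a and 0.736 ± 0.564 FPKM in pcDNA, with a log2 fold change of -1.20 (95% interval -3.41 to 1.0, edgeR adjusted p = 0.676). For both genes the interval still held a rise, of up to 1.79-fold for Apoa2 and 1.99-fold for Apoa1.

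Apob (ENSMUSG00000020609, chr12:7977648-8016835, plus strand, 29 exons) had 158, 160 and 122 counts in Hnf3a and 244, 237 and 106 counts in pcDNA. As for Alb and Fgb, pcDNA replicates 1 and 2 were high. Unlike for those genes, pcDNA replicate 3 of Apob was below every Hnf3a library. Its transcript is long, so that these counts were a level of only 0.14 ± 0.0189 FPKM in Hnf3a and 0.198 ± 0.0825 FPKM in pcDNA. The log2 fold change was -0.51 (95% interval -1.14 to 0.12, edgeR adjusted p = 0.503), and a rise above 1.09-fold lay outside the interval. Apoh (ENSMUSG00000000049, chr11:108343354-108414396, plus strand) encodes β2-glycoprotein I, a phospholipid-binding plasma protein, and overlaps Prkca on the opposite strand and the intronic gene Gm11656. Its counts were 16, 6 and 14 in Hnf3a and 0, 24 and 20 in pcDNA. These values lay around the floor, with no order between the groups. The log2 fold change was -0.33 (95% interval -2.24 to 1.58, edgeR adjusted p = 0.934) and was 0.022 without Hnf3a replicate 2 and 0.22 without pcDNA replicate 2.

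Ttr and Tat are the remaining genes. Ttr (ENSMUSG00000061808, chr18:20665280-20674321, plus strand, 4 exons) encodes transthyretin, the carrier of thyroxine and of retinol-binding protein, and had 93, 74 and 27 counts in Hnf3a and 47, 81 and 55 counts in pcDNA. Its highest and its lowest library were both Hnf3a libraries. The level was 0.722 ± 0.388 FPKM in Hnf3a and 0.713 ± 0.188 FPKM in pcDNA, with a log2 fold change of 0.0062 (95% interval -0.84 to 0.85, edgeR adjusted p = 0.996), so that changes within 0.56-fold and 1.8-fold could not be told from none. Tat (ENSMUSG00000001670, chr8:109990437-109999803, plus strand, 12 exons), tyrosine aminotransferase, differs from the other 9 in that its product is an enzyme of the hepatocyte and is not secreted. It had 22, 8 and 4 counts in Hnf3a and 5, 8 and 7 counts in pcDNA. Only Hnf3a replicate 1 was above the floor of 12 counts, and Tat did not pass the filter. An exact permutation test of its FPKM gave a two-sided p of 0.8, and the smallest p that 3 against 3 libraries allow is 0.1.

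Among the 10 genes, the order of the levels was nearly shared between the groups. Alb led, and its lowest library was above the highest of Apoa2, the next gene, in both groups. Apoa2, Apoa1, Ttr and Fgb followed, and neighbours in that order overlapped in their libraries in either group. Fga, Apob, Afp, Apoh and Tat closed the order. Fgb stood above Fga without overlap in Hnf3a, and Fga stood above Apob without overlap in pcDNA.

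The libraries moved the genes in 2 visible arrangements. Alb, Apob, Fga and Fgb were highest in pcDNA replicates 1 and 2. Apoa1, Apoa2 and Apoh had their 3 highest values in pcDNA replicate 2, pcDNA replicate 3 and Hnf3a replicate 1, and Ttr was highest in Hnf3a replicate 1 and pcDNA replicate 2. The library pcDNA replicate 2 was among the 2 highest for 9 of the 10 genes, and Hnf3a replicates 2 and 3 were among the 2 highest for 0. Against pcDNA with Hnf3a replicate 1 alone, without the libraries that held collagen counts, 0 of the 9 genes were called, and the log2 fold changes were -0.59 for Alb, -0.88 for Fga, -0.52 for Fgb, -0.35 for Apob, -0.48 for Afp, -0.26 for Apoa1, 0.13 for Apoh, 0.38 for Apoa2 and 0.59 for Ttr.

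**Figure D3:**
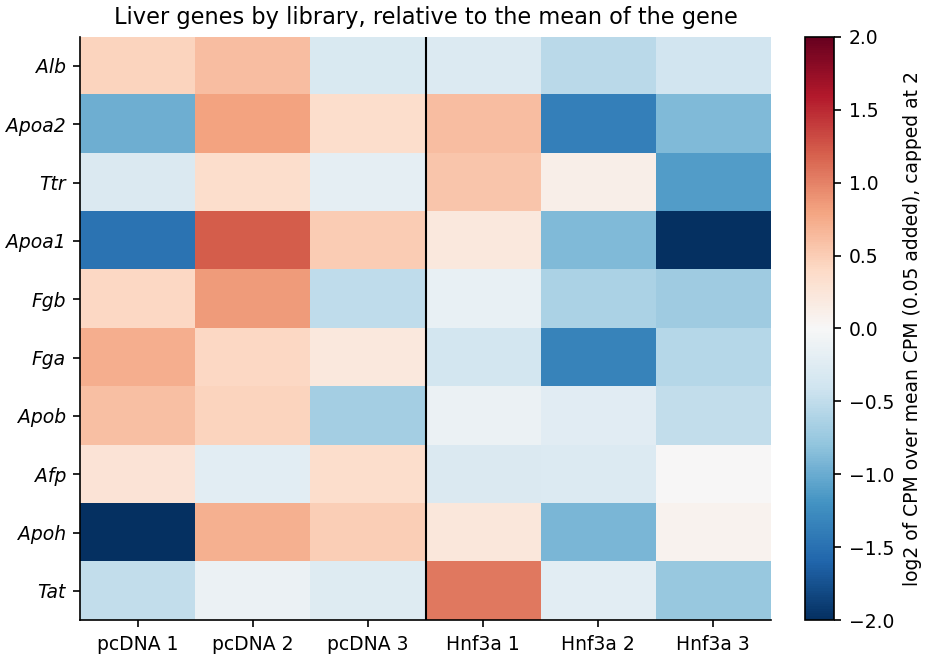
Colour shows the log2 of the CPM of a gene in a library over its mean CPM (0.05 added to both, capped at 2), for the 10 liver genes in rows and the 6 libraries in columns, with a line between the groups. The pcDNA replicate 2 column is above the mean for 8 of the 10 genes, and Apoa1 and Apoh swing most between libraries.

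Other secreted proteins of the liver were read from a list of 51 genes, of which 40 were tested. Of these, 0 were higher and 3 were lower at an adjusted p under 0.05, and 31 of the 40 log2 fold changes were below 0, with a median of -0.57. Over all genes tested, 1.04% were called higher and 2.13% lower, and 49.8% had a log2 fold change below 0. Hp, haptoglobin, the scavenger of free haemoglobin, had 169, 173 and 80 counts in Hnf3a and 416, 463 and 285 in pcDNA. The groups did not overlap, and Hp fell from 3.4 ± 0.837 FPKM to 1.16 ± 0.423 FPKM (log2 fold change -1.56, SE 0.29, edgeR adjusted p = 0.0226). Ahsg, the plasma protein fetuin-A, fell from 0.751 ± 0.128 FPKM to 0.275 ± 0.161 FPKM (log2 fold change -1.44, SE 0.35, edgeR adjusted p = 0.0441). Cp, the copper carrier ceruloplasmin, was the most abundant gene of the list and fell by 0.13 on the log2 scale, from 42.5 ± 0.74 FPKM to 39.2 ± 0.601 FPKM (edgeR adjusted p = 0.0287). Hpx, the haem carrier hemopexin, was next in level, at 4.32 ± 0.885 FPKM in Hnf3a and 8.86 ± 2.72 FPKM in pcDNA, with a log2 fold change of -1.04 (edgeR adjusted p = 0.195). Apoe was at 4.7 ± 0.635 FPKM and 4.44 ± 1.04 FPKM (edgeR adjusted p = 0.921). The number of calls changed when 1 library was left out, while the 3 directions were kept. Ahsg and Cp were then called only without Hnf3a replicate 1. Hp was called without that library, without Hnf3a replicate 3 and without pcDNA replicate 3, and in no other such fit. The log2 fold change then lay between -1.75 and -1.28 for Hp, -2.01 and -1.14 for Ahsg, and -0.14 and -0.11 for Cp. Over all genes tested, calls fell from 565 to 263, 286 and 267 without Hnf3a replicate 2, pcDNA replicate 1 and pcDNA replicate 2. Without Hnf3a replicate 2, pcDNA replicate 1 or pcDNA replicate 2, 0 genes of the list were called, without Hnf3a replicate 3 there was 1, and without Hnf3a replicate 1 or pcDNA replicate 3 there were 5. With Hnf3a replicate 1 alone against pcDNA there were 0 calls (adjusted p = 0.0694 for Hp), and DESeq2 on all 6 libraries called 7, each of these calls being lower in Hnf3a.

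Enzymes and transporters of the hepatocyte were mostly at low levels. Of 28 such genes in the table, 25 were under 1 FPKM in every library, 10 were at or under the floor in every library, and 12 were tested, with 0 called by edgeR (3 at an unadjusted p under 0.05, and 1 called by DESeq2) and a median log2 fold change of -0.21. Without Hnf3a replicate 1, edgeR called 2. Of all genes tested on all 6 libraries, edgeR called 3.17%, 13.5% had an unadjusted p under 0.05 in edgeR, and DESeq2 called 3.34%. Cyp7a1, the rate-limiting enzyme of bile acid synthesis, had at most 3 counts in any library. The 3 most abundant were Ass1 of the urea cycle, at 5.21 ± 0.41 FPKM in Hnf3a and 6.05 ± 0.233 FPKM in pcDNA, Fah of tyrosine breakdown, at 2.16 ± 0.316 and 2.03 ± 0.28 FPKM, and Arg1, arginase, at 2.39 ± 0.352 and 1.68 ± 0.143 FPKM (log2 fold change 0.50, edgeR adjusted p = 0.0803).

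The factors that act with FOXA in liver were read from a list with 19 genes in the table, of which 16 were tested. Of these, 1 was called higher and 0 lower, against 1.04% and 2.13% of all genes tested. The median of their log2 fold changes was -0.089. The call was Ppara, the nuclear receptor of fatty acid oxidation, with 17, 35 and 46 counts in Hnf3a and 0, 7 and 0 in pcDNA. All pcDNA values were under the floor, and the call (edgeR adjusted p = 0.048) was not made with Hnf3a replicate 1 alone (adjusted p = 0.551), nor without Hnf3a replicate 2 or 3 or pcDNA replicate 1 or 3. Hnf4a, the nuclear receptor that many of the 10 genes need in hepatocytes, was near the floor, with 22, 4 and 16 counts in Hnf3a and 19, 25 and 4 in pcDNA. Foxa2 and Foxa3 were also scarce, at 31 to 44 and 5 to 18 counts in Hnf3a and at 25 to 49 and 11 to 22 counts in pcDNA. By contrast, Cebpb, the most abundant factor of the list, was at 63.5 ± 4.55 FPKM in Hnf3a and 65.7 ± 0.828 FPKM in pcDNA. Hhex, a homeobox factor of liver development, was at 1.05 ± 0.129 and 1.08 ± 0.0877 FPKM.

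**Figure D4:**
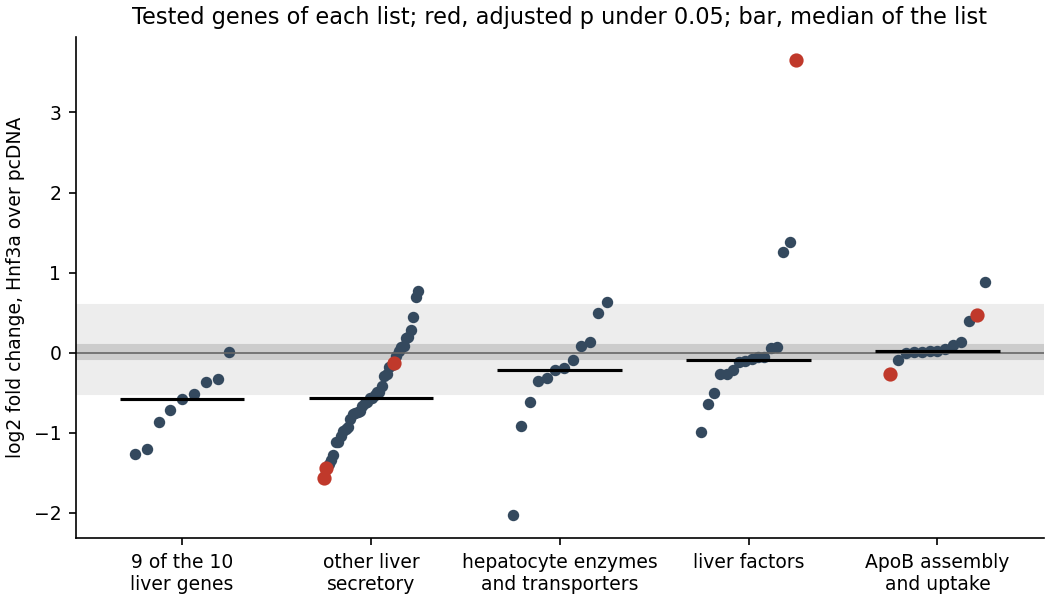
Log2 fold change of Hnf3a over pcDNA from edgeR for each tested gene of the liver genes and of 4 further lists, 1 point per gene, with genes at an adjusted p under 0.05 in red, the median of each list as a bar, and shaded bands that hold the central 50% and 90% of all genes tested. The medians of the liver genes (-0.58) and of other liver secretory genes (-0.57) lie below the band of the central 50%.

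The genes that load lipid onto ApoB, move the particle through the cell and clear it were read from a list of 13, all of which were tested, and 12 were above the floor in every pcDNA library and 13 in every Hnf3a library. Their median log2 fold change was 0.028, and 2 were called by edgeR, against 3.17% of all genes tested. Sort1, the sorting receptor sortilin, was higher in Hnf3a (1.39 ± 0.0358 against 0.994 ± 0.0915 FPKM, log2 fold change 0.47, edgeR adjusted p = 0.0147), and Dgat2, which makes triglyceride, was lower (6.35 ± 0.112 against 7.58 ± 0.382 FPKM, log2 fold change -0.26, adjusted p = 0.0285). Sort1 was not called without Hnf3a replicate 2, pcDNA replicate 1 or pcDNA replicate 3. Dgat2 was not called whichever library was left out (edgeR adjusted p of 0.0521 to 0.141). With Hnf3a replicate 1 alone against pcDNA, the log2 fold changes were 0.48 for Sort1 and -0.27 for Dgat2. Mttp, the transfer protein that lipidates ApoB, was at 1.41 ± 0.0418 FPKM in Hnf3a and 1.28 ± 0.121 FPKM in pcDNA (edgeR adjusted p = 0.642). Surf4, a cargo receptor of the secretory pathway, was among the abundant genes of the list. The most abundant, P4hb, the partner subunit of the transfer protein, was at 198 ± 5.05 and 189 ± 5.4 FPKM.

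Around the 10 genes, 44 further genes of the table lay within 100 kb, and 34 of them were tested. Of these, 1 was called, against the 3.17% of all genes, and their median log2 fold change was -0.026. This was Adamts4, a protease of aggrecan 24 kb from Apoa2, with 411, 576 and 481 counts in Hnf3a and 804, 728 and 847 in pcDNA. The groups did not overlap, and Adamts4 fell by 0.79 on the log2 scale (edgeR adjusted p = 0.00114). Without Hnf3a replicate 1, 2 of these neighbours were called. In the apolipoprotein cluster beside Apoa1, Apoc3 and Apoa4 had log2 fold changes of -1.11 (edgeR adjusted p = 0.317) and -0.53 (adjusted p = 0.674), and Apoa5 was not tested.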

How the data were processed

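RNA of 6 TKPTS samples (3 Hnf3a, 3 pcDNA, grouped and numbered by the sample labels) was sequenced by a company from both ends, 150 bases per read, from poly(A) libraries with strand marking and unique molecular identifiers. The submitters' processing notes name cutadapt 1.9, HISAT2 2.0.4, UMI-tools, StringTie 1.3.4d, DESeq2, edgeR and the build mm10, with no role or order. The annotation, the counting settings and the use of strand are not given in the sources used here. The authors deposited estimated counts, which are whole numbers, and FPKM values for 29595 genes. Of 29514 genes shared with GENCODE vM21, 26766 had the same span, which places the table on GRCm38. In each of the 6 libraries a count of 4 was more frequent among genes than a count of 3 or of 5, and the floor of 12 counts (0.169 to 0.198 CPM) covers counting error only.

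The estimated counts of the 17824 genes that passed filterByExpr were fitted together in R 4.3.3 with edgeR 4.0.16 (TMM scaling, estimateDisp, robust glmQLFit, glmQLFTest, two-sided, no covariate), with Benjamini-Hochberg adjustment across these genes and a threshold of 0.05. Intervals are 95% intervals from the standard error of the log2 fold change, and levels are means ± SD of FPKM over 3 libraries. The fit was tested on simulated data. Alternatives used DESeq2 1.42.0, limma 3.58.1 on log2(FPKM + a pseudocount of 0.1, 1 or 0.01), other filters and scalings, counts divided by 4, a replicate block and leaving out libraries. Nothing says that libraries came from separate cultures beyond their labels, so p-values measure the spread between these libraries, which may be technical. No 2 libraries were identical.

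Members and lists were chosen with earlier results of these data known. From each list, the genes past the threshold (at most 8) and the 3 most abundant were named, apart from some not reported here, and the few others named (Fgg, Mttp, Hnf4a, Foxa2, Foxa3, Cyp7a1, the neighbours of Apoa1 and the cell type markers) were chosen after their values were seen.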

Additional observations from a re-analysis of the deposited data

How the results depend on the processing

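The cause of the changes given here was not tested. Over 17 alternative fits, the 9 liver genes gave 144 log2 fold changes, of which 132 were below 0, 5 passed the threshold and 0 passed it above 0. These fits reuse the same 6 libraries and 9 genes, so the 144 values are not separate observations. The number of liver genes called was 1 with DESeq2, 1 with counts divided by 4, and between 0 and 2 when 1 library was left out. With counts divided by 4, 661 genes of the table were called, 237 higher and 424 lower. Foxa1 stayed between 4.84 and 5.11.

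Genes called over the whole table numbered 236, 231 and 245 with limma (pseudocounts 0.1, 1 and 0.01), 322 with Hnf3a replicate 1 alone, an alternative chosen after seeing the data in which this library was assumed to vary like the pcDNA libraries, and between 263 (without Hnf3a replicate 2) and 643 when 1 library was left out, with 286, 267 and 349 without pcDNA replicates 1, 2 and 3. Under limma, 0 genes were called among other liver secretory genes, liver factors and ApoB assembly genes, and the same 3 counts were 0 with Hnf3a replicate 1 alone. DESeq2 called 7 other liver secretory genes and 1 hepatocyte enzyme, the filter of at least 1 FPKM gave 1 enzyme and 0 factors, and counts divided by 4 gave 0 factors. Leaving out 1 library gave 0 to 5 other liver secretory genes, 0 to 2 enzymes, 0 to 1 factors, 0 to 2 ApoB assembly genes and 1 to 2 neighbours.

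Some directions turned. Apoa2 was 0.38 and Apoh 0.13 with Hnf3a replicate 1 alone, where Ttr was 0.59. Apoh was 0.42 under limma with 0.01 added and between -0.90 and 0.22 when 1 library was left out. Ttr was -0.09, -0.012 and -0.12 under limma (0.1, 1 and 0.01 added), -0.02 with counts divided by 4, and between -0.40 and 0.37 when 1 library was left out.

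With the replicate number as a block, 463 genes were called, with 5 other liver secretory genes, 0 factors and 1 ApoB assembly gene, and Ttr was -0.11. Same-numbered libraries had deviations from their group means that correlated at -0.0085, -0.0071 and -0.0016 over all genes tested. These values showed no pairing by number, but noise in scarce genes could hide a pairing that affects only some genes. Tat was under 12 counts in every pcDNA library and in 2 of 3 Hnf3a libraries, and did not pass the filter. Its permutation test could not go below a p of 0.1, so it cannot show whether Tat differed.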
